A study of Homo sapiens with 12 samples.

Results

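Iron handling was followed through 10 genes, chosen by symbol for their roles in storing, importing, exporting, sensing and releasing iron, among 31654 gene rows. They code for the ferritin heavy and light chains (FTH1, FTL), the ferritin cargo receptor of autophagy (NCOA4), transferrin receptor 1 (TFRC), an endosomal ferric reductase (STEAP3), the metal transporter DMT1 (SLC11A2), ferroportin (SLC40A1), the iron regulatory proteins 1 and 2 (ACO1, IREB2) and haem oxygenase 1 (HMOX1). RNA was sequenced from 4 established human glioblastoma cell lines with 3 libraries each: U251TR, its parent U251MG, U87TR and its parent U87MG. U251TR and U87TR are sublines that the submitters selected for resistance to temozolomide, the DNA-alkylating drug used against glioblastoma, by exposing the parents again and again to increasing doses in culture. All 4 lines grew in DMEM with fetal bovine serum, and the labels do not say whether drug was present when RNA was taken. Each parent has 1 resistant derivative, and no label states that replicate libraries were grown as separate cultures; p-values here therefore speak only of the spread from library to library. Levels are FPKM, fragments per kilobase of transcript scaled to all fragments read, which correct for gene length and total reads. Of the 10 genes, 9 reached 1 FPKM in at least 3 libraries and were tested; ferroportin did not.

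Most cells take up iron bound to transferrin through TFRC, reduce it in the endosome with a STEAP enzyme, pass it to the cytosol through DMT1, store the surplus inside a ferritin shell of heavy and light chains, and send iron out only through ferroportin. ACO1 and IREB2 bind a hairpin in target mRNAs, the iron-responsive element, when iron is scarce; binding in the 5′ UTR blocks translation of ferritin and ferroportin mRNA, and binding in the 3′ UTR protects TFRC mRNA from decay. NCOA4 carries ferritin to the lysosome, where its iron is set free, and HMOX1 frees iron from haem. Ferritin mRNA is also under transcriptional control, by the antioxidant regulator NRF2 among others, and the amount of ferritin protein cannot be read from mRNA alone.

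The iron-responsive elements are shown because the search matched them in 4 of the 10 genes and because they place ferritin and TFRC under the same regulators with opposite outcomes. They were read from the canonical GENCODE v44 transcripts and placed on hg38, 5′ to 3′ on the transcript strand with T for U; capitals mark the 6-base loop, CAGTG followed by any base, and the lower-case arms on each side hold the stem. The element of FTH1 lies in its 5′ UTR at chr11:61967575-61967601 on the minus strand, that of FTL in its 5′ UTR at chr19:48965336-48965362 on the plus strand, and that of SLC40A1 in its 5′ UTR at chr2:189580662-189580688 on the minus strand. In TFRC the search matched 4 in the 3′ UTR on the minus strand, at chr3:196050980-196051006, chr3:196050576-196050602, chr3:196050511-196050537 and chr3:196050464-196050490. Elements that depart from the search pattern given below would not be found.
FTH1 5′ UTR element: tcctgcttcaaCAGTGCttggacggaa
FTL 5′ UTR element: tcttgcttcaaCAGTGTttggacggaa
SLC40A1 5′ UTR element: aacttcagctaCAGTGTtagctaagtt
TFRC 3′ UTR element 1: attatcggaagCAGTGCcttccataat
TFRC 3′ UTR element 2: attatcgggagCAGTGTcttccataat
TFRC 3′ UTR element 3: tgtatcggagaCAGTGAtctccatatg
TFRC 3′ UTR element 4: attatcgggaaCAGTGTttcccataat
Position by position, the FTH1 and FTL elements shared 25 of 27 bases and the 4 TFRC elements shared 17 to 25 with each other, while the TFRC elements shared 9 to 11 with the FTH1 element and 10 to 13 with the FTL element. The search pattern was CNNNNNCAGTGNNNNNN on the transcript strand with the 5 bases before the loop pairing with the 5 after it, G with T allowed. It was found in 262 of 20046 canonical protein-coding transcripts, or 1.31%. The canonical transcripts of the other 6 genes held no match, SLC11A2 among them, whose element is known from another of its transcripts. A match is a description of letters and says nothing of binding in these cells.

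Between 13135 and 14122 genes reached 1 FPKM in each library. The table holds no counts, so the depth of each library is unknown and no counting interval can be given. The least typical library was U251MG replicate 2, whose rank correlations with its fellow replicates were 0.977 and 0.978, against 0.993 for the remaining pair; for U87MG replicate 3 they were 0.983 and 0.987, against 0.993. U87TR libraries carry codes from a number block of their own, which means that resistance and that block cannot be told apart in the U87 comparison. The same block enters the difference between the changes in the U251 and U87 lines, and the comparison of U87TR with U251TR. Of the 10 glial and glioma markers, GFAP stood at 381.35 to 415.37 FPKM in U251TR and 18.32 to 29.89 FPKM in U251MG, but at no more than 2.28 FPKM in U87TR and 1.41 FPKM in U87MG. SOX2, a neural stem cell factor, was at 111.6 to 114.43 FPKM in U251TR and 203.85 to 241.7 FPKM in U251MG, against 0.3 FPKM at most in U87TR and 0 FPKM in U87MG. S100B was likewise at 0.1 FPKM at most in the U87 lines, while other markers on this list were well expressed there: VIM at 3818.72 to 4266.41 FPKM in U87TR and 4552.13 to 5372.9 FPKM in U87MG, and CD44 at 454.89 to 543.59 FPKM in U87TR and 959.67 to 1134.09 FPKM in U87MG. Among cells known for heavy iron traffic, 6 of 7 erythroid genes measured stayed under 1 FPKM in every library; EPOR, the erythropoietin receptor gene, reached 24.6 FPKM. Of 6 macrophage genes, 4 stayed under 1 FPKM everywhere, with the leukocyte gene PTPRC at 0.08 FPKM at most, whereas CD68 stood at 312.62 to 343.62 FPKM in U87TR and 190.1 to 204.71 FPKM in U87MG, and CSF1R at 13.58 to 15.75 FPKM in U87TR and 10.69 to 15.78 FPKM in U87MG. The part of CD68 in the U87 results was not tested.

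Ferritin mRNA was higher in U251TR than in U251MG for both chains, and the light chain moved further. FTL, the chain that helps iron crystallise in the core, stood at 10562.94, 11131.25 and 11471.80 FPKM in U251TR, against 2004.78, 1883.62 and 1922.05 FPKM in U251MG. FTH1, the chain with the ferroxidase activity that loads iron, stood at 8562.80, 8967.66 and 9960.07 FPKM in U251TR, against 3713.77, 2406.20 and 3407.03 FPKM in U251MG. The groups were far apart for both chains. The log2 fold change was 2.51 for FTL (SE 0.15, 5.7-fold, limma adjusted p = 5.37e-08) and 1.55 for FTH1 (SE 0.14, 2.93-fold, limma adjusted p = 2.76e-06), where adjusted p-values are Benjamini-Hochberg over all 15449 tested genes. The lowest FTH1 value belonged to U251MG replicate 2; without that library the FTH1 change was 1.36 (limma adjusted p = 7.55e-07).

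In the U87 lines neither ferritin chain passed the test. FTH1 stood at 8120.73, 8469.45 and 9255.90 FPKM in U87TR, against 9626.42, 9390.16 and 7769.19 FPKM in U87MG. These ranges overlap, and the log2 difference of -0.047 had a 95% interval of -0.36 to 0.26 (limma adjusted p = 0.857). FTL stood at 2339.81, 2471.39 and 2811.14 FPKM in U87TR, against 3959.91, 3522.27 and 2391.80 FPKM in U87MG, and here too the ranges overlap, through U87MG replicate 3. The log2 difference was -0.35 (SE 0.15, limma adjusted p = 0.103); without that library it was -0.56 and past the threshold (limma adjusted p = 0.000947). The changes in the U251 and U87 lines differed from each other, by 2.86 on the log2 scale for FTL (SE 0.21, limma adjusted p = 6.6e-07) and by 1.60 for FTH1 (SE 0.20, limma adjusted p = 5.43e-05).

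**Figure D1:**
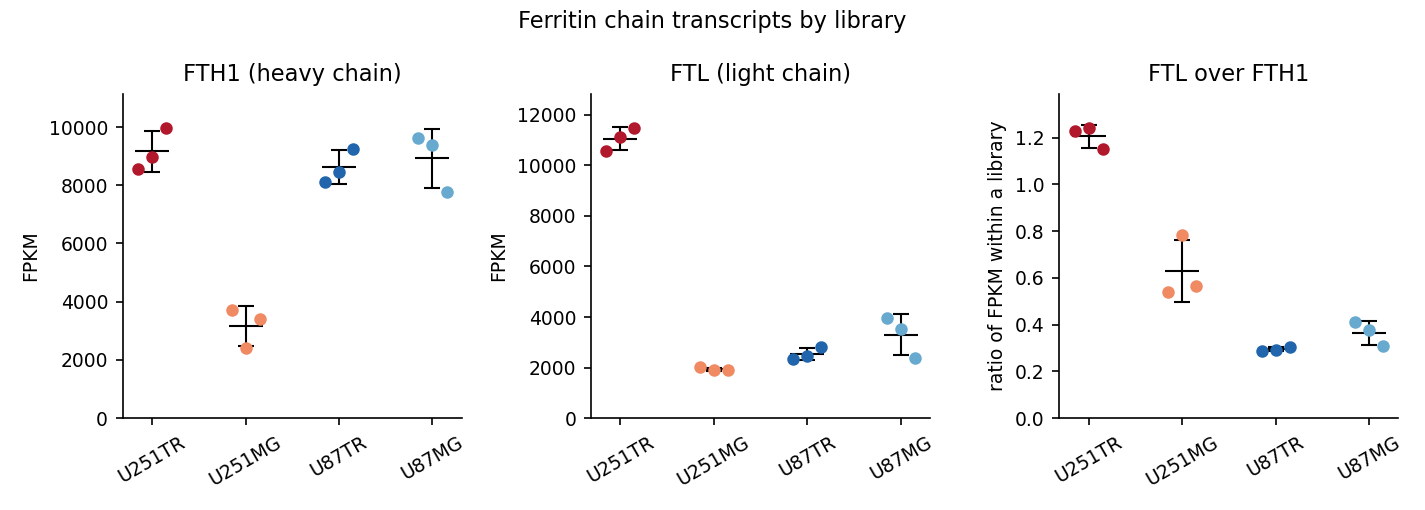
FPKM of FTH1 and FTL, and the ratio of FTL to FTH1, in each of the 12 libraries by cell line, with each resistant line left of its parent. Points are libraries, horizontal marks are group means and bars are SD. FTH1 is low only in U251MG among these lines, at 2406.20 to 3713.77 FPKM, while FTL is high only in U251TR, at 10562.94 to 11471.80 FPKM.

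The balance between the chains followed from these levels. Because FPKM is per length, the FTL to FTH1 ratio can be read within a library: it was 1.23, 1.24 and 1.15 in U251TR, against 0.54, 0.783 and 0.564 in U251MG. Light-chain mRNA thus exceeded heavy-chain mRNA in every U251TR library and in none of the other 9. In the U87 lines the ratio was 0.288, 0.292 and 0.304 in U87TR, against 0.411, 0.375 and 0.308 in U87MG. Among the 15449 tested genes ordered by mean FPKM, FTL ranked 2 and FTH1 4 in U251TR, against 52 and 23 in U251MG. Both chains together made up 2.83% ± 0.0929 of all FPKM in U251TR and 0.661% ± 0.0929 in U251MG, and 1.52% ± 0.0737 in U87TR and 1.62% ± 0.261 in U87MG (SD, n = 3 each). Reads shared with processed copies of the ferritin genes are a limit of such values, since the authors' counting could split them: 17 rows named as FTH1 copies summed to at most 10.7 FPKM in a library, and 5 rows named as FTL copies to at most 3.66 FPKM. Adding these rows to their parent genes left the number of iron genes called at 5 in the U251 comparison and 4 in the U87 comparison.

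NCOA4, which delivers ferritin to the lysosome, behaved differently from the ferritin chains. It stood at 57.12, 55.31 and 53.77 FPKM in U251TR, against 54.22, 57.48 and 56.17 FPKM in U251MG, with overlapping ranges and a log2 difference of -0.014 (95% interval -0.17 to 0.14, limma adjusted p = 0.895). In U87TR it was slightly higher, at 46.24, 46.20 and 44.14 FPKM, against 42.04, 37.27 and 36.14 FPKM in U87MG. That log2 change of 0.24 (SE 0.072, limma adjusted p = 0.0281) lost its call in 4 of 17 alternative settings, each of which left out 1 library (without U87TR replicate 1 or 2, or U87MG replicate 2 or 3), at adjusted p = 0.073 to 0.102. The difference between its changes in the U251 and U87 lines was -0.25 (limma adjusted p = 0.0598). That difference passed the threshold with median-of-ratios factors (log2 -0.43, limma adjusted p = 0.0038) and with quantile normalization (log2 -0.39, limma adjusted p = 0.0106). It also passed without U87MG replicate 1 (log2 -0.32, limma adjusted p = 0.0223).

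TFRC, the main entry for transferrin iron, was modestly higher in U251TR than in U251MG and modestly lower in U87TR than in U87MG. It stood at 162.88, 172.21 and 159.94 FPKM in U251TR, against 137.62, 146.36 and 135.16 FPKM in U251MG, with no overlap. It stood at 119.43, 115.52 and 102.71 FPKM in U87TR, against 143.36, 133.54 and 130.77 FPKM in U87MG, again with no overlap. The log2 changes were 0.24 in U251TR (SE 0.075, limma adjusted p = 0.0175) and -0.27 in U87TR (SE 0.075, limma adjusted p = 0.0178), and they differed by 0.51 (SE 0.11, limma adjusted p = 0.00194). Each of these calls was lost in 4 of 17 alternative settings: in U251TR with median-of-ratios factors (log2 0.10, adjusted p = 0.251) and without U251TR replicate 2 or U251MG replicate 1 or 3 (adjusted p = 0.0528 to 0.0735), and in U87TR after rescaling to TPM, after quantile normalization, and without U87TR replicate 3 or U87MG replicate 1 (adjusted p = 0.0736 to 0.091).

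SLC11A2, the DMT1 gene, followed the same pattern. It stood at 23.26, 22.11 and 23.10 FPKM in U251TR, against 20.03, 18.88 and 17.91 FPKM in U251MG, and at 26.90, 27.65 and 27.15 FPKM in U87TR, against 39.93, 38.25 and 32.28 FPKM in U87MG. Neither pair of groups overlapped. The log2 change was 0.26 in U251TR (SE 0.086, limma adjusted p = 0.0244) and -0.42 in U87TR (SE 0.086, limma adjusted p = 0.00368), a difference of 0.67 (SE 0.12, limma adjusted p = 0.000779). The small rise in U251TR lost its call in 5 of 17 alternative settings: with median-of-ratios factors (log2 0.12), with quantile normalization (log2 0.16), and without U251TR replicate 1 or 3 or U251MG replicate 3 (adjusted p = 0.0614 to 0.24 over the 5).

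STEAP3, which reduces ferric iron in the endosome, did not pass the test in either comparison. It stood at 24.56, 25.12 and 23.87 FPKM in U251TR, against 25.90, 50.05 and 25.36 FPKM in U251MG, where replicate 2 alone was high. The log2 difference of -0.37 (95% interval -0.82 to 0.073, limma adjusted p = 0.146) was -0.062 without that library and -0.51 with median-of-ratios factors, which put it past the threshold (adjusted p = 0.046). In U87TR it stood at 83.50, 80.27 and 77.73 FPKM, against 89.59, 93.67 and 118.92 FPKM in U87MG. These ranges did not overlap, but the log2 difference of -0.31 had a 95% interval of -0.76 to 0.14 (limma adjusted p = 0.297).

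SLC40A1, the gene of ferroportin, the known iron exporter of mammalian cells, was near the bottom of the measured range in all 4 lines. It stood at 0.40, 0.39 and 0.47 FPKM in U251TR and at 0.60, 0.72 and 0.29 FPKM in U251MG, with overlapping ranges. It was listed at 0 in all 3 U87TR libraries, and at 0, 0 and 0.02 FPKM in the U87MG libraries. With these values it was not tested.

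ACO1, whose product works as a cytosolic aconitase when it holds an iron-sulphur cluster and as iron regulatory protein 1 when it does not, moved in opposite directions in the resistant lines. It stood at 50.52, 50.94 and 53.50 FPKM in U251TR, against 22.65, 27.61 and 23.38 FPKM in U251MG. It stood at 28.58, 30.69 and 29.12 FPKM in U87TR, against 44.27, 43.46 and 38.94 FPKM in U87MG. No group overlapped its parent. The log2 change was 1.05 in U251TR (SE 0.087, 2.07-fold, limma adjusted p = 1.12e-06) and -0.50 in U87TR (SE 0.087, limma adjusted p = 0.0011), a difference of 1.55 (SE 0.12, limma adjusted p = 1.35e-06).

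IREB2, the second regulatory protein, which is controlled mainly by iron-dependent breakdown of the protein, showed no called change in mRNA. It stood at 24.03, 28.03 and 21.74 FPKM in U251TR, against 24.36, 20.35 and 33.22 FPKM in U251MG (log2 -0.055, 95% interval -0.40 to 0.29, limma adjusted p = 0.801). In the U87 lines it stood at 14.65, 15.53 and 12.65 FPKM in U87TR, against 13.70, 15.18 and 12.48 FPKM in U87MG (log2 0.046, 95% interval -0.30 to 0.39, limma adjusted p = 0.876). Both pairs of groups overlapped.

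HMOX1, the inducible enzyme that opens haem and releases its iron, depended on a single U251MG library. It stood at 25.07, 25.35 and 26.05 FPKM in U251TR, against 47.94, 14.12 and 41.20 FPKM in U251MG, where the low value is replicate 2. With all libraries the log2 difference was -0.25 (95% interval -0.96 to 0.46, limma adjusted p = 0.551); without U251MG replicate 2 HMOX1 was lower in U251TR by a called log2 change of -0.78 (limma adjusted p = 6.47e-05). In the U87 lines it stood at 173.25, 157.31 and 165.11 FPKM in U87TR, against 127.78, 126.26 and 159.96 FPKM in U87MG, with overlapping ranges and a log2 difference of 0.27 (95% interval -0.45 to 0.98, limma adjusted p = 0.602). The difference between its changes in the U251 and U87 lines was -0.52 (SE 0.46, limma adjusted p = 0.386), and -1.04 without U251MG replicate 2 (limma adjusted p = 8.4e-05).

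**Figure D2:**
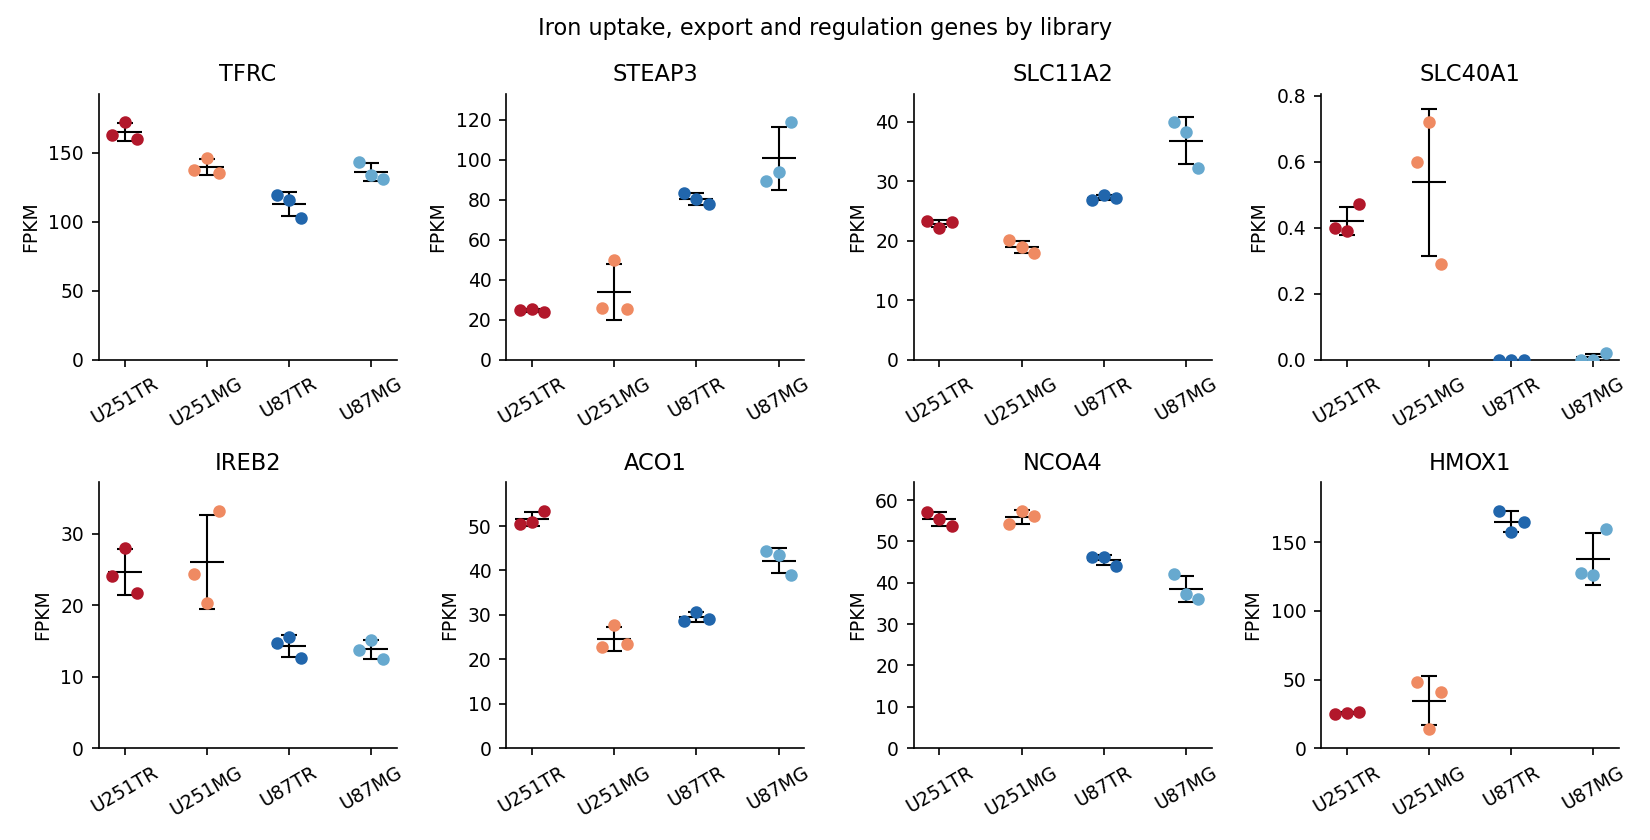
FPKM of the other 8 iron genes in each of the 12 libraries, one panel per gene, with each resistant line left of its parent. Points are libraries, horizontal marks are group means and bars are SD. ACO1 is higher in U251TR than in U251MG and lower in U87TR than in U87MG, and SLC40A1 stays under 1 FPKM in every library.

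Counted together, 5 of the 9 tested genes were higher and 0 lower in U251TR than in U251MG, where 53.2% of all tested genes were called, 33.6% higher and 19.6% lower. The median log2 change of the 9 was 0.24, against 0.096 over all tested genes. In U87TR 1 of the 9 was higher (NCOA4) and 3 were lower (TFRC, SLC11A2 and ACO1) than in U87MG, where 27.8% of all tested genes were called, 10.6% higher and 17.2% lower; the median of the 9 was -0.27, against -0.049 over all tested genes. The changes differed between the U251 and U87 lines for 5 of 9 genes (FTH1, FTL, TFRC, SLC11A2 and ACO1), all with the higher change in U251TR; 47.6% of all tested genes differed so, 32.1% with the higher change in U251TR. These shares of called genes were high throughout, so the counts are read beside them and not by themselves. Library ranges did not overlap for 6 of the 9 genes in the U251 comparison, against 58.9% of all tested genes, and for 5 of the 9 in the U87 comparison, against 46.6%. At 2-fold or more, 3 of the 9 were called in U251TR (FTH1, FTL and ACO1), against 13.6% of all tested genes, 0 of the 9 in U87TR, against 5.19%, and 3 of the 9 in the difference between the changes, against 18.4%. Between U87MG and U251MG 3 were called at that size, against 31.6%, and between U87TR and U251TR 3, against 32.6%.

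**Figure D3:**
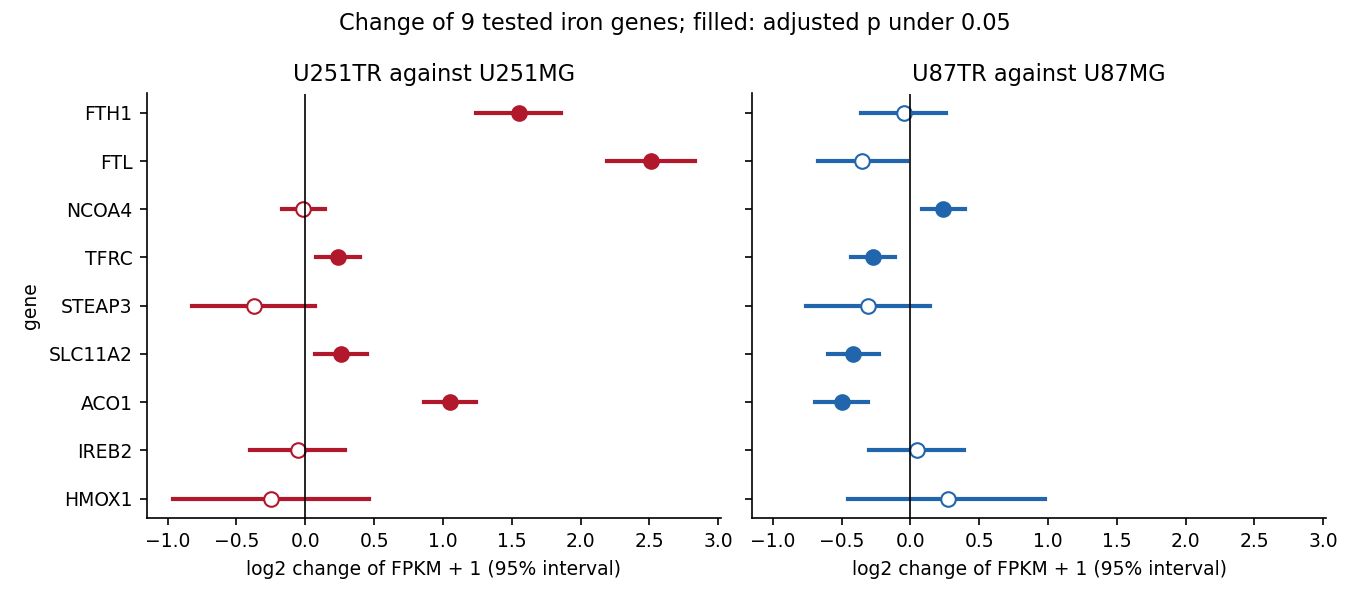
Log2 change of each tested iron gene on the log2(FPKM + 1) scale, U251TR against U251MG and U87TR against U87MG, with 95% intervals from the fit. FTL, FTH1 and ACO1 have U251TR changes of 2.51, 1.55 and 1.05, while the U87TR intervals of FTH1, IREB2, HMOX1 and STEAP3 cross 0.

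The parental lines also differed from each other in iron genes, as they did in most tested genes, and these values share libraries with the comparisons above. Between U87MG and U251MG 8 of the 9 genes were called, 6 higher and 2 lower, where 72.3% of all tested genes were called, 32.2% higher and 40.1% lower; the ranges of the same number, 8, did not overlap, against 72.3% of all tested genes. U87MG was higher than U251MG in HMOX1 (138 ± 19.0 FPKM against 34.42 ± 17.9 FPKM), STEAP3 (100.7 ± 15.9 against 33.77 ± 14.1), FTH1 (8929 ± 1011 against 3176 ± 684), SLC11A2 (36.82 ± 4.02 against 18.94 ± 1.06), ACO1 (42.22 ± 2.87 against 24.55 ± 2.68) and FTL (3291 ± 809 against 1937 ± 61.9; SD, n = 3 each). It was lower in IREB2, by a log2 change of -0.84 (SE 0.16), and in NCOA4, by -0.53 (SE 0.072). TFRC was not called (log2 -0.04, 95% interval -0.20 to 0.12, limma adjusted p = 0.645).

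Between the resistant lines, FTL and ACO1 stood in the opposite order to that between the parents. SLC11A2, IREB2, NCOA4, HMOX1 and STEAP3 kept the direction of the parental comparison on the deposited scale. TFRC was called only between the resistant lines (log2 -0.55 in U87TR against U251TR, limma adjusted p = 2.75e-05). Cell line and the number block of the U87TR libraries cannot be told apart here. Between U87TR and U251TR 8 of 9 genes were again called, 3 higher and 5 lower, where 72.6% of all tested genes were called, 25.5% higher and 47.1% lower; ranges did not overlap for 8, against 78.7% of all tested genes. FTH1, 8615 ± 582 FPKM in U87TR and 9164 ± 719 FPKM in U251TR (SD, n = 3 each), was the one not called (log2 -0.088, 95% interval -0.40 to 0.22, limma adjusted p = 0.595). FTL was lower in U87TR by a log2 change of -2.12 (SE 0.15, limma adjusted p = 5.94e-08), whereas in the parental comparison it was higher in U87MG by 0.73 (SE 0.15). ACO1 likewise had a log2 difference of -0.79 between the resistant lines and 0.76 between the parents. HMOX1 and STEAP3 were higher in U87TR by 2.65 and 1.68 on the log2 scale, and they were higher in U87MG than in U251MG by 2.13 and 1.61. The median of all tested genes was -0.27 in this comparison and -0.0099 with median-of-ratios factors, and under that scaling the log2 change of NCOA4 was 0.0072 (limma adjusted p = 0.933), against -0.28 on the deposited scale.

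By mean level across the 4 lines, FTH1 was lowest in U251MG, and its ranges in U87TR, U87MG and U251TR overlapped from one to the next. In the order of the 4 lines, the ranges of ACO1, SLC11A2 and STEAP3 did not overlap between neighbours. For STEAP3 the step within the U251 lines was narrow, from 25.12 FPKM at most in U251TR to 25.36 FPKM at least in U251MG. Neither STEAP3 change in a resistant line was called (limma adjusted p = 0.146 in U251TR and 0.297 in U87TR). ACO1 was highest in U251TR, then U87MG, U87TR and U251MG. SLC11A2 and STEAP3 were highest in U87MG, then U87TR. The share of all tested genes with 4 ranges apart in this way was not counted, so the order is only a description. HMOX1 fell into a higher pair of U87TR and U87MG and a lower pair of U251MG and U251TR, with overlap inside each pair and none between them.

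Wider lists of iron genes were set beside the 10, some of them overlapping the 10 in part. Their counts are to be read beside the shares over all tested genes. In U251TR these were 33.6% higher and 19.6% lower, with a median log2 change of 0.096. In U87TR they were 10.6% higher and 17.2% lower, with a median of -0.049. For iron uptake, 11 of 17 tested genes rose and 1 fell in U251TR (median log2 change 0.38, against 0.096 over all tested genes; 10 of 15 rose and 1 fell without LCN2 and LTF, which would not have met the limit for testing without the U251TR libraries), while 1 rose and 3 fell in U87TR (median -0.095, against -0.049). LCN2, a secreted carrier of iron-binding siderophores, averaged 6.463 ± 1.01 FPKM in U251TR and 0.12 ± 0.208 FPKM in U251MG, and SLC22A17, which codes for a reported LCN2 receptor, averaged 14.79 ± 1.09 FPKM in U251TR and 3.647 ± 0.73 FPKM in U251MG (SD, n = 3 each; limma adjusted p = 2.64e-06 for SLC22A17). LCN2 was at 0.36 FPKM or less outside U251TR, so it could be tested only because it was high there, and no p is given for it. LRP1, a scavenger receptor that takes up haem bound to hemopexin, rose in U251TR by 2.24 on the log2 scale (SE 0.17), and STEAP2, a metal reductase, by 1.96 (SE 0.13; 1.07 with a pseudocount of 5). STEAP2 fell by 0.62 in U87TR (SE 0.13, limma adjusted p = 0.00368). In U87TR the 1 uptake gene that rose was MFI2, the gene of the membrane iron-binding protein melanotransferrin, at 10.63 ± 0.0751 FPKM in U87TR and 2.11 ± 0.212 FPKM in U87MG (SD, n = 3 each; log2 1.91, limma adjusted p = 1.91e-07; log2 1.14 with a pseudocount of 5).

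In the storage list, which holds FTH1, FTL and NCOA4, 3 of 8 tested genes rose and 1 fell in U251TR (median 0.048). Among all tested genes 33.6% rose and 19.6% fell. In U87TR 1 of the 8 rose and 1 fell (median 0.019), against 10.6% and 17.2% of all tested genes. Without U251MG replicate 2 the U251TR counts were 3 and 3. In U87TR none rose without U87TR replicate 1 or 2 or U87MG replicate 2 or 3, and 2 fell without U87MG replicate 3. PCBP1, a chaperone that loads iron into ferritin, rose slightly in U251TR to 180.5 ± 10.9 FPKM, against 145.8 ± 5.02 FPKM in U251MG (limma adjusted p = 0.0019; log2 0.17 and adjusted p = 0.093 with median-of-ratios factors). Its relative PCBP4 fell in both: to 46.75 ± 4.3 FPKM in U251TR, against 97.87 ± 13.5 FPKM in U251MG, and to 21.76 ± 1.58 FPKM in U87TR, against 53.38 ± 5.27 FPKM in U87MG (SD, n = 3 each; limma adjusted p = 1.19e-05 and 7.11e-06).

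In the export list, with SLC40A1 near 0, the genes that stood apart were those of copper ferroxidases that partner ferroportin. CP, the gene of ceruloplasmin, stood at 37.92, 28.79 and 23.93 FPKM in U251TR, against 0.26, 0.63 and 0.37 FPKM in U251MG, and at 0.32 FPKM or less in every U87TR and U87MG library. HEPH, the gene of hephaestin, averaged 1.253 ± 0.125 FPKM in U251TR and 0.21 ± 0.0794 FPKM in U251MG (SD, n = 3 each). CP and HEPH reached 1 FPKM only in the U251TR libraries, so they could be tested only because they were high there; their values are given as a description, with no p. On the log2(FPKM + 1) scale the CP difference was 4.44, and it was 5.90 with a pseudocount of 0.1 and 2.68 with one of 5. The other 2 tested export genes were not called in U251TR, and none of the 4 was called in U87TR (median 0.011). Ceruloplasmin is secreted mainly by liver, and of 6 hepatocyte markers measured 5 were under 1 FPKM in every library, ALB at 0.33 FPKM at most. SERPINA1, the sixth, stood at 8.59 to 11.55 FPKM in U251TR and 0.04 to 0.22 FPKM in U251MG. It was higher still in U87TR, at 32.55 to 36.55 FPKM, against 0.76 to 2.17 FPKM in U87MG, lines in which CP was near 0.

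In the list of iron sensing and the hepcidin axis, 5 of 17 tested genes rose and 2 fell in U251TR (median -0.055). Among all tested genes 33.6% rose and 19.6% fell. In U87TR 2 of the 17 rose and 3 fell (median 0.013), against 10.6% and 17.2% of all tested genes. BMP6, the ligand that induces hepcidin in liver when iron is high, averaged 8.703 ± 0.54 FPKM in U251TR and 1.353 ± 0.274 FPKM in U251MG, and 1.783 ± 0.125 FPKM in U87TR and 0.8633 ± 0.168 FPKM in U87MG (SD, n = 3 each; limma adjusted p = 4.3e-08 and 0.00294). The BMP6 change in U251TR was 2.05 on the log2 scale and 1.11 with a pseudocount of 5. In U251TR the log2 change of NEO1, the gene of neogenin, a receptor of this pathway, was 1.68 (SE 0.075), and that of ID1, a target gene of BMP signalling, was 1.45 (SE 0.12). BMP2, a second hepcidin-inducing ligand, fell by 1.39 in U251TR (SE 0.11), and the signal transducers SMAD4 and SMAD5 fell in U87TR by 0.97 (SE 0.16) and 0.59 (SE 0.11). HAMP, the hepcidin gene itself, was at 0.09 FPKM at most in any library. FBXL5, whose product marks IREB2 protein for breakdown, was chosen for mention after its values were seen: it averaged 31.04 ± 0.964 FPKM in U251TR and 40.64 ± 4.36 FPKM in U251MG (SD, n = 3 each; limma adjusted p = 0.00539), and it was not called in U87TR (log2 -0.13, limma adjusted p = 0.363).

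For haem breakdown and transport, 7 of 13 tested genes rose and none fell in U251TR (median 0.34). The shares of all tested genes were 33.6% and 19.6%. In U87TR 2 of the 13 rose and none fell (median 0.13), against 10.6% and 17.2% of all tested genes. BLVRB and BLVRA, the biliverdin reductases that act after haem oxygenase, rose in U251TR to 161.7 ± 19.5 and 66.56 ± 2.88 FPKM, against 41.26 ± 4.21 and 32.64 ± 0.563 FPKM in U251MG (SD, n = 3 each; limma adjusted p = 2.1e-08 and 8.46e-07). SLC48A1, a transporter of haem out of endosomes, and ABCG2, an efflux pump that also carries porphyrins, rose in U87TR by 0.68 (SE 0.088) and 0.70 (SE 0.16) on the log2 scale. The size of the change in the haem transporter gene FLVCR2 in U251TR (log2 1.71, limma adjusted p = 0.0465) rested on replicate 3, at 15.94 FPKM beside 0.59 and 1.09 FPKM in the other U251TR libraries, against 0.11 to 0.25 FPKM in U251MG; without replicate 3 the change was 0.63 and still called (adjusted p = 0.00754). The FLVCR2 call was lost in 8 of 16 other settings, among them those without U251MG replicate 1, 2 or 3 (adjusted p = 0.0574 to 0.111 over the 8).

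In haem synthesis 5 of 13 tested genes rose and 1 fell in U251TR (median 0.10), against 33.6% and 19.6% of all tested genes. In U87TR 1 of the 13 rose and 3 fell (median -0.076), against 10.6% and 17.2%. FECH, ferrochelatase, which places iron into the porphyrin ring, averaged 29.75 ± 1.74 FPKM in U251TR and 17.04 ± 0.909 FPKM in U251MG, but 12.79 ± 1.25 FPKM in U87TR and 20.85 ± 0.315 FPKM in U87MG (SD, n = 3 each; limma adjusted p = 1.32e-05 and 0.000123). UROD and PPOX, enzymes upstream of it, rose in U251TR by 0.71 (SE 0.15) and 0.65 (SE 0.11) on the log2 scale. For UROD, U251MG replicate 2 was the library of its line nearest to U251TR, at 87.65 FPKM beside 56.55 and 53.98 FPKM. ABCB6, a porphyrin transporter, rose in U251TR by 0.89 (SE 0.13, limma adjusted p = 8.48e-05) and in U87TR by 0.42 (SE 0.13, limma adjusted p = 0.0253), the second a call that was lost, among other settings, without U87TR replicate 1 or 3 or U87MG replicate 1 or 2 (adjusted p = 0.0805 to 0.106). The haem synthesis counts in U87TR ranged over the alternative settings, 2-fold calls aside, from 0 to 3 higher and from 1 to 4 lower.

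Iron-sulphur cluster assembly is the other large user of cellular iron. Of 25 tested mitochondrial genes 14 rose and 4 fell in U251TR (median 0.23), against 33.6% and 19.6% of all tested genes. But 7 rose with median-of-ratios factors, 8 with quantile normalization, 9 without U251TR replicate 2 and 8 without U251TR replicate 3. NFU1, a cluster carrier, rose in U251TR by 1.09 on the log2 scale (SE 0.11), FDXR, a ferredoxin reductase, by 1.02 (SE 0.17), ABCB8, an inner-membrane transporter, by 0.94 (SE 0.10), and NFS1, the sulphur donor enzyme, by 0.86 (SE 0.18). U251MG replicate 2 was the library of its line nearest to U251TR for FDXR, at 12.82 FPKM beside 6.78 and 7.24 FPKM, and for NFS1, at 30.62 FPKM beside 16.66 and 16.02 FPKM. In U87TR 3 of these 25 rose and 5 fell (median -0.17), against 10.6% and 17.2% of all tested genes. Over the settings, 2-fold calls aside, the U87TR counts ranged from 0 to 5 higher and from 0 to 8 lower. Of 12 cytosolic assembly genes 3 rose and 2 fell in U251TR (median -0.04), while 1 rose and 5 fell in U87TR (median -0.20), the last count ranging from 1 to 5 over the settings, 2-fold calls aside. CIAO1, a core subunit of the cytosolic targeting complex, rose in U251TR (log2 0.39, SE 0.073, limma adjusted p = 0.000812) and fell in U87TR (log2 -0.42, SE 0.073, limma adjusted p = 0.00122).

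Transcripts known to carry an iron-responsive element were also counted as a list, which holds FTH1, FTL, TFRC and SLC11A2. The search above found no match in the canonical transcripts of its members SLC11A2, EPAS1 and CDC42BPA. Of 8 tested, 6 rose and none fell in U251TR (median 0.47), against 33.6% and 19.6% of all tested genes. In U87TR none of the 8 rose and 3 fell (median -0.19), against 10.6% and 17.2%. Over the settings other than the requirement of 2-fold, 4 to 6 were higher and 0 to 1 lower in U251TR, and 2 to 4 lower in U87TR. Genes with the element on either side of the coding region were in the risen group, ferritin with it in the 5′ UTR and TFRC with it in the 3′ UTR. The U251TR call of TFRC was lost in 4 of 17 alternative settings. Whether the element had a part in these changes was not tested. EPAS1, the gene of hypoxia-inducible factor 2 alpha, averaged 20.64 ± 0.0896 FPKM in U251TR and 8.177 ± 4.19 FPKM in U251MG, and 62.44 ± 2.72 FPKM in U87TR and 135.3 ± 16.3 FPKM in U87MG (SD, n = 3 each; limma adjusted p = 0.00179 and 0.015); in U251MG replicate 2 was the low library at 3.36 FPKM, beside 10.94 and 10.23 FPKM. CDC14A, a phosphatase gene, had a log2 change of 0.67 in U251TR (SE 0.12).

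Among 15 transcription factors known to act on iron genes, 5 rose and 5 fell in U251TR (median 0.068). The shares over all tested genes were 33.6% and 19.6%. In U87TR 1 of the 15 rose and 5 fell (median -0.12), against 10.6% and 17.2% of all tested genes. MAFG, a small Maf partner of NRF2 and BACH1, averaged 53.89 ± 2.74 FPKM in U251TR and 22.03 ± 5.91 FPKM in U251MG, but 13.48 ± 0.634 FPKM in U87TR and 26.7 ± 2.86 FPKM in U87MG (SD, n = 3 each; limma adjusted p = 3.49e-05 and 0.00116). In U251TR MAFK, another such partner, had a log2 change of -1.60 (SE 0.22). MYC, known to lower FTH1 and raise TFRC and IREB2 in other cells, fell by 1.45 in U251TR (SE 0.087) and by 0.48 in U87TR (SE 0.087). The regulators of the ferritin antioxidant element were chosen for mention after their values were seen. NFE2L2, the NRF2 gene, was not called in U251TR (log2 0.23, limma adjusted p = 0.0835) and rose in U87TR (log2 0.35, limma adjusted p = 0.0284); KEAP1, its inhibitor, fell by 0.47 in U251TR (SE 0.11, limma adjusted p = 0.00338) and was not called in U87TR (log2 0.0049, limma adjusted p = 0.993). BACH1, the repressor, was called in neither (log2 0.068 in U251TR and 0.27 in U87TR, limma adjusted p = 0.841 and 0.46). In U87TR replicate 1 alone was high: BACH1 stood at 19.12, 7.72 and 8.61 FPKM there, against 8.21, 8.41 and 10.14 FPKM in U87MG.

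**Figure D4:**
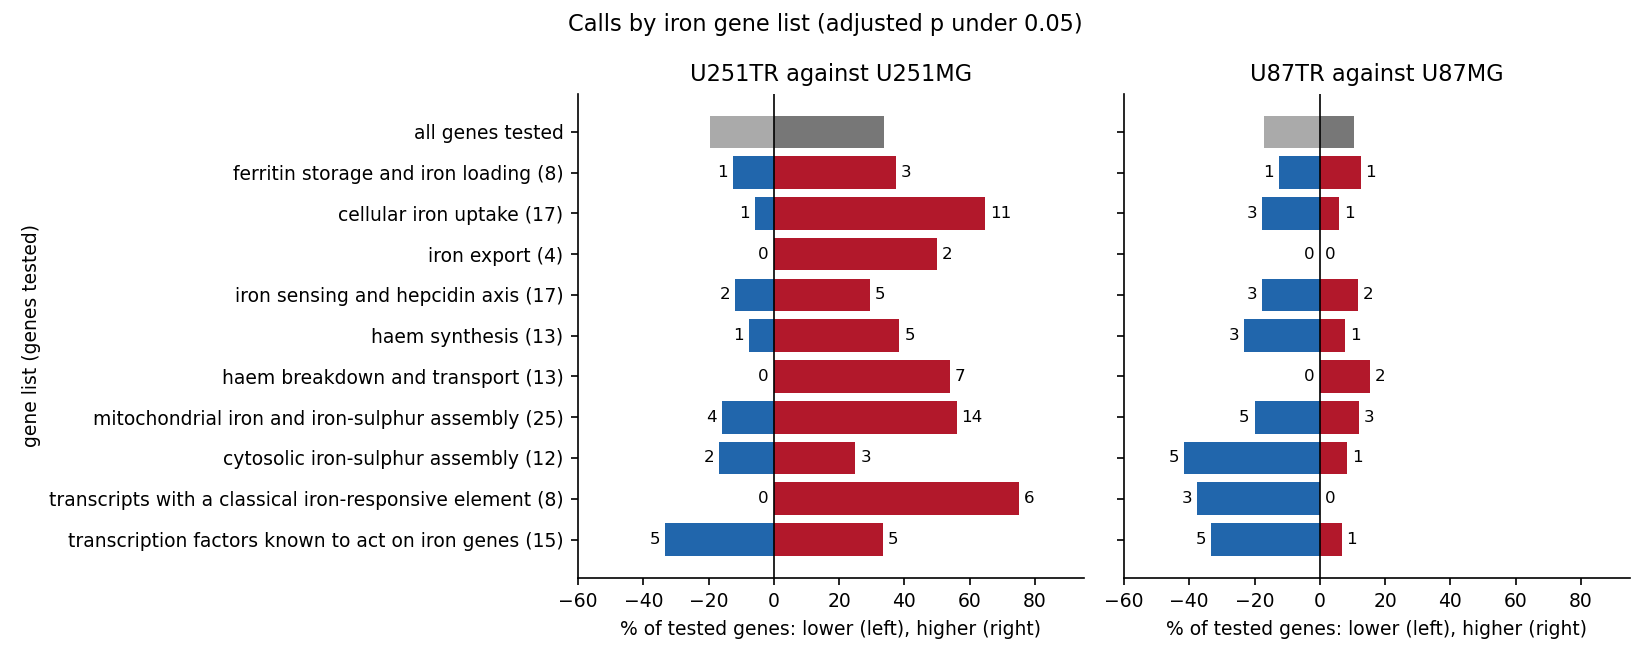
Share of tested genes called higher and called lower in each iron gene list, for U251TR against U251MG and U87TR against U87MG, with the share over all 15449 tested genes for reading against. Uptake has 11 of 17 genes higher in U251TR and 1 of 17 in U87TR. Its U251TR bar includes LCN2 and LTF, which would not have met the limit for testing without the U251TR libraries. Without these genes it has 10 of 15 higher. The bar of export in U251TR holds only CP and HEPH, which likewise met the limit only through U251TR.

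Genes with the same pattern as the ferritin chains were sought among 7862 tested genes with a plain symbol and a mean of at least 10 FPKM, by the root mean square difference of log2(FPKM + 1) centred on its 12-library mean. The gene most like FTH1 was CDKN1A, the gene of the cell cycle inhibitor p21, at 0.16, with means of 131 FPKM in U251TR, 48.84 FPKM in U251MG, 138.3 FPKM in U87TR and 150 FPKM in U87MG. IRAK2, PIGK, RALB and IAH1 came next, at 0.19 to 0.21. The gene most like FTL was CASP4, an inflammatory caspase gene, at 0.24, with means of 61.02 FPKM in U251TR, 10.82 FPKM in U251MG, 15.83 FPKM in U87TR and 26.03 FPKM in U87MG. RFK, ERMP1, TMEM194A and NQO1 followed, at 0.25 to 0.31. NQO1, a quinone reductase gene controlled by NRF2, averaged 949.6 FPKM in U251TR, 249.4 FPKM in U251MG, 380.9 FPKM in U87TR and 418.6 FPKM in U87MG. These are likenesses over 12 libraries of 4 lines and carry no test.

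Promoters of 8 of the 10 genes, 13 in all, were in the RefSeq table used. The core of the antioxidant response element, TGACNNNGC, searched on both strands of the 250 bases before each start, was not found in these 13 (0 matches) and found in 10.9% of 35116 promoters. FTH1 and HMOX1 were not among the 8, and the window holds no distal enhancer.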

How the data were processed

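The deposited table holds one value per gene symbol and library to 2 decimals. No header or label names the unit; it was inferred to be FPKM from the values, which the authors had scaled to sums of 695282 to 785754 per library. Multiplied by transcript length in kilobases for the 19974 symbols matched to GENCODE v44, they come to 0.911 to 0.976 of the sum that FPKM would give with every fragment counted in a matched gene. Per the submitters' processing notes, STAR 2.5.2b and RSEM 1.2.31 were used, with hg19 as the build, while the design text gives hg38; coordinates printed here are hg38 and come from the reference, not from the table. Per the labels, TruSeq libraries from RNA whose integrity number was 6.8 or above were read as 150 bp pairs. Of 31681 symbol rows, 27 turned into dates by a spreadsheet were left out.

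A gene was tested if 3 libraries or more had it at 1 FPKM or above (15449 genes). A group-means model of log2(FPKM + 1) over all 12 libraries was fitted in limma 3.58.1 (R 4.3.3) with trend and robust moderation, two-sided, with Benjamini-Hochberg adjustment over all genes tested and a threshold of 0.05. Fold changes are on this scale, which understates changes of weakly expressed genes. Levels are means ± SD between libraries. The fit was tested on simulated data. Named genes were the 10, up to 4 called genes per list and comparison with the largest changes, and up to 5 genes most alike in pattern to FTH1 and FTL. The 10 genes, the lists and the rules were chosen with earlier results of these data known. Alternatives were a replicate block, fitting only the 6 libraries compared, no filter on low values or one at 5 FPKM, a pseudocount of 0.1 or 5, rescaling to TPM, median-of-ratios factors, quantile normalization, no trend or robust moderation, copies summed into the parent gene, at least 2-fold calls, and leaving out each library in turn.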

Additional observations from a re-analysis of the deposited data

Results flagged for a closer look

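For 5 iron genes the change in U251TR relative to U251MG differed from the change in U87TR relative to U87MG by the interaction test in limma, adjusted over all 15449 genes. The difference on the log2 scale was 1.60 for FTH1 (adjusted p = 5.43e-05), 2.86 for FTL (adjusted p = 6.6e-07), 0.51 for TFRC (adjusted p = 0.00194), 0.67 for SLC11A2 (adjusted p = 0.000779) and 1.55 for ACO1 (adjusted p = 1.35e-06), each positive where the change was higher in U251TR. Of all tested genes, 47.6% differed in this way. The difference includes the U87TR libraries, whose separate number block cannot be told apart from resistance in U87TR. For TFRC, SLC11A2 and ACO1 the libraries of each resistant line lay apart from those of its parent, above in U251TR and below in U87TR.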

How the results depend on the processing

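Of 810 values recomputed for the 9 tested iron genes, 763 kept their direction and their side of the threshold, 21 lost their call, 7 gained one and 19 changed sign. Of the 19, NCOA4 in U87TR against U251TR was a called value, at 0.0072 with median-of-ratios factors (adjusted p = 0.933). The others were called neither as reported nor where their sign changed. After rescaling to TPM they were IREB2 (0.054) and NCOA4 (0.097) in U251TR and FTH1 in U87TR (0.00093); with quantile normalization, FTH1 in U87TR (0.14) and in U87TR against U251TR (0.34); with median-of-ratios factors, FTH1 in U87TR against U251TR (0.20) and TFRC in U87MG against U251MG (0.067). Leaving out single libraries, the log2 change in U251TR ranged from -0.21 to 0.13 for IREB2, from -0.036 to 0.0067 for NCOA4 and from -0.78 to 0.068 for HMOX1; in U87TR it ranged from -0.14 to 0.01 for FTH1 and from -0.018 to 0.13 for IREB2; the difference between the changes ranged from -0.26 to 0.084 for IREB2 and from -0.23 to 0.25 for STEAP3. Requiring at least 2-fold left 3 genes called in U251TR, 0 in U87TR, 3 in the difference between the changes, 3 between U87MG and U251MG and 3 between U87TR and U251TR. Leaving out each library in turn gave 3 to 6 genes called in U251TR, 3 to 4 in U87TR, 5 to 6 in the difference, 8 between the parents and 7 to 8 between the resistant lines; without U251MG replicate 3 the U251TR count was 3, since TFRC and SLC11A2 were lost. The calls of FTH1, FTL and ACO1 in U251TR, and of ACO1 and SLC11A2 in U87TR, held in every setting except the requirement of 2-fold, which ACO1 and SLC11A2 did not reach in U87TR. With a replicate block the counts were 5, 4, 5, 8 and 8, as without it; same-numbered libraries did not deviate together (correlations of -0.053 to 0.116 in the U251 lines and -0.058 to 0.059 in the U87 lines), so the numbers were not taken as pairs. Scaling moved the share of calls that were higher to 50.6% in U251TR with median-of-ratios factors and 72.2% after rescaling to TPM, against 63.2% as deposited, and to 45.3% and 47.2% in U87TR, against 38.1%; the all-gene median of the difference between the changes was 0.17 as deposited and 0.015 with median-of-ratios factors. Of 921 values of the other named list genes, 853 kept their call, 68 lost it and none reversed. Over the settings other than the requirement of 2-fold, iron sensing had 4 to 7 genes higher and 2 to 5 lower in U251TR, uptake 8 to 12 higher in U251TR and 2 to 4 lower in U87TR, and transcription factors 4 to 7 higher in U251TR and 4 to 7 lower in U87TR. Changing the pseudocount moved the change of LCN2, CP, HEPH, STEAP2, BMP6 and FLVCR2 in U251TR and of MFI2 in U87TR by over 1.5 times.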

Other observations

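In several genes of the wider lists 1 library stood far from the others of its line, among them FLVCR2 and BACH1, given above. The 2 genes given here were picked after their values were seen. BOLA2, a cytosolic iron-sulphur factor with a near-identical gene copy that makes its values uncertain, stood at 25.96, 0.85 and 31.08 FPKM in U251TR, against 26.17, 25.61 and 23.9 FPKM in U251MG. FAM132B, the gene of erythroferrone, a hormone that lowers hepcidin, stood at 36.18, 36.91 and 44.51 FPKM in U251TR, against 35.81, 9.51 and 34.33 FPKM in U251MG, where the low value is replicate 2, the library that was also low in HMOX1 and FTH1 and high in STEAP3.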
